A study of Mus musculus with 2 samples.

Results

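The genes described here are 88 of the 26840 genes in the deposited merged expression table of mouse hypothalamic cells. They were chosen by name alone, as symbols that start with Cfap, Dnah, Dnaic, Tekt, Rsph, Spag, Ift or Bbs followed by a number. The names gave 26 Cfap, 15 Dnah, 2 Dnaic, 5 Tekt, 7 Rsph, 11 Spag, 14 Ift and 8 Bbs genes, and 1 of the Spag names, Spag17os, is the antisense RNA of Spag17. The study profiled the arcuate nucleus and median eminence of the outbred CD-1 strain by Drop-seq, which tags the 3' ends of mRNAs of single cells in droplets. The dissected tissue of 7 wild-type (WT) mice made 1 library, and that of 6 mice homozygous for a null allele of the homeobox gene Irx5 (Irx5-/-, here Irx5KO) made the other, all at 7 to 8 weeks of age and after a sort for live cells. Each genotype is therefore 1 pooled library, no spread between mice can be measured, and no test between genotypes was possible. All intervals below are 95% intervals of counting error only, and each ratio is given for both libraries where it can be.

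A motile cilium is a microtubule shaft, the axoneme, that beats because rows of dynein motors slide its outer doublets past each other. DNAH and DNAIC genes encode heavy and intermediate chains of these motors, RSPH genes the radial spokes that pass signals from the central pair to the dyneins, TEKT genes filaments inside the doublet wall, and CFAP genes many smaller axonemal parts. IFT and BBS proteins instead carry cargo along the shaft and are also used by the immotile primary cilium that most neurons and glia bear. Ependymal cells of the third ventricle carry tufts of motile cilia that move cerebrospinal fluid, whereas tanycytes, which line the floor of the same ventricle and send a long process to the median eminence, are known for few or single cilia.

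RFX transcription factors bind a paired motif, the X-box, in front of many ciliary genes, and FOXJ1 is the forkhead factor of motile ciliogenesis. Promoter sequence from 250 bases before to 50 after the start was on hand from RefSeq (GRCm38.p6) for 73 of the 88 members. A loose X-box pattern, GTNNCC followed after 2 bases by GGNNAC (N is any base) and searched on both strands, lay in 12 of them (16.4%), against 2.16% of the promoters of 27025 genes and 2.70% of those of 13718 genes in the merged table. Its share was 3 of 8 among Bbs genes (37.5%) and 5 of 45 among the Cfap, Dnah, Dnaic, Tekt and Rsph genes (11.1%). The shorter GTTGCC lay in 28 member promoters (38.4%, against 14.1% of all), and its matches overlap those of the longer pattern in some promoters. The strict paired form, GTTGCC followed after 2 bases by GGCAAC, lay in 0 of the 73, against 0.111% of all. The forkhead letters TGTTTAC lay in 4 (5.48%, against 4.05%). A match describes the letters only. The following stretches, each 60 bases long, 5' to 3' on the gene's strand and in front of the RefSeq start, show the loose pattern in capitals. Cfap126 (chr1:171122940-171122999, plus strand, in front of a start inside the longest annotated gene model) was higher in ependymal-like cells than in neurons (below). Cfap206 (chr4:34730207-34730266, minus strand) was lower in Irx5KO tanycytes. Ift57 (chr16:49699184-49699243, plus strand) and Bbs7 (chr3:36613474-36613533, minus strand) are transport genes of both kinds of cilium. The match begins 82, 23, 87 and 121 bases before the start, in that order.
Cfap126: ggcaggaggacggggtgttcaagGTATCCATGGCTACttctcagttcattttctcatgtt
Cfap206: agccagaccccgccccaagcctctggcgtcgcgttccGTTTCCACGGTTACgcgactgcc
Ift57: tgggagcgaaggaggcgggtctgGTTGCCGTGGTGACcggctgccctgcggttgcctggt
Bbs7: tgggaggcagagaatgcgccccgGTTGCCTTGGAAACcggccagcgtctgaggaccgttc

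Cells with at least 500 detected genes were kept, 1841 in the WT and 1949 in the Irx5KO library, with a median of 1621 and 1692 unique molecular identifiers (UMIs) per cell and 3960089 and 4915775 UMIs in all. Irx5 itself had 13 UMIs in 11 WT cells and none in the Irx5KO library, where 3 UMIs would be 0.610 counts per 1000000 UMIs (CPM) and the upper interval bound is 0.750 CPM. Of those WT cells, 4 were ependymal-like (5 UMIs, 31.0 CPM, interval 10.1 to 72.4), 4 were oligodendrocyte precursors (5 UMIs, 19.0 CPM, 6.18 to 44.4), 2 were neuron-like and 1 was an oligodendrocyte. Cells were clustered without the 88 members or the lists of ciliary genes outside the name rule, so the clustering did not use those genes. Classes were named from markers, which were not left out of the clustering. The ependymal markers include Foxj1 and Ccdc153, so that class is not independent of motile ciliogenesis. The ependymal-like class held 88 WT and 19 Irx5KO cells (4.78% and 0.975% of cells). All 9 of its markers were at least 2-fold above the median over clusters, led by Ccdc153, Tmem212 and Rarres2. Other clustering settings put between 70 and 175 WT cells and between 13 and 99 Irx5KO cells in it, so its size is not settled by these data. Tanycyte-like cells made 2 clusters. The larger one (257 WT and 321 Irx5KO cells) is here called Crym-led, with the tanycyte markers Crym and Frzb among its leading genes, behind Cyr61, Mlc1 and Gja1. It had 12 tanycyte markers, all 9 ependymal markers and 7 astrocyte markers at least 2-fold above the median over clusters, and Mia was also among its leading genes. The smaller one, led by Scn7a and Col23a1 (76 and 103 cells), had all 13 tanycyte markers and 5 astrocyte markers at that level. Neuron-like cells numbered 627 and 896 in 6 clusters. The 2 libraries shared 1 cell barcode.

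Genes of the moving axoneme were highest in the ependymal-like class, followed by Crym-led tanycytes and the small astrocyte-like class, and lower in the other classes. Summed over the 53 Cfap, Dnah, Dnaic, Tekt and Rsph members other than Cfap36 and Cfap20, they made up 14358 CPM of WT ependymal-like UMIs (13779 to 14955) and 12451 CPM in the Irx5KO library (11226 to 13774). Cfap36 and Cfap20 were left out after their levels were seen. Crym-led tanycytes held 5181 (4974 to 5395) and 4561 CPM (4385 to 4743). Both libraries thus gave the same order at the top. Scn7a-led tanycytes held 745 (631 to 873) and 540 CPM (455 to 636), and neurons 664 (627 to 703) and 589 CPM (562 to 616). These last levels are neighbours whose intervals overlap in each library. Oligodendrocytes, which have no motile cilia, held 157 (121 to 201) and 176 CPM (129 to 234), of which Dnah14 gave 68.8 and 63.7 CPM. Free RNA in the droplets was not measured separately. The astrocyte-like class held 3015 and 2570 CPM in 12 and 37 cells. It had 9 astrocyte, 10 tanycyte and 6 ependymal markers at least 2-fold above the median over clusters. Pars tuberalis cells held 714 and 799 CPM. In WT microglia the sum was 626 CPM against 172 CPM in the Irx5KO library, and a single WT cell gave 42.6% of those UMIs.

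**Figure D1:**
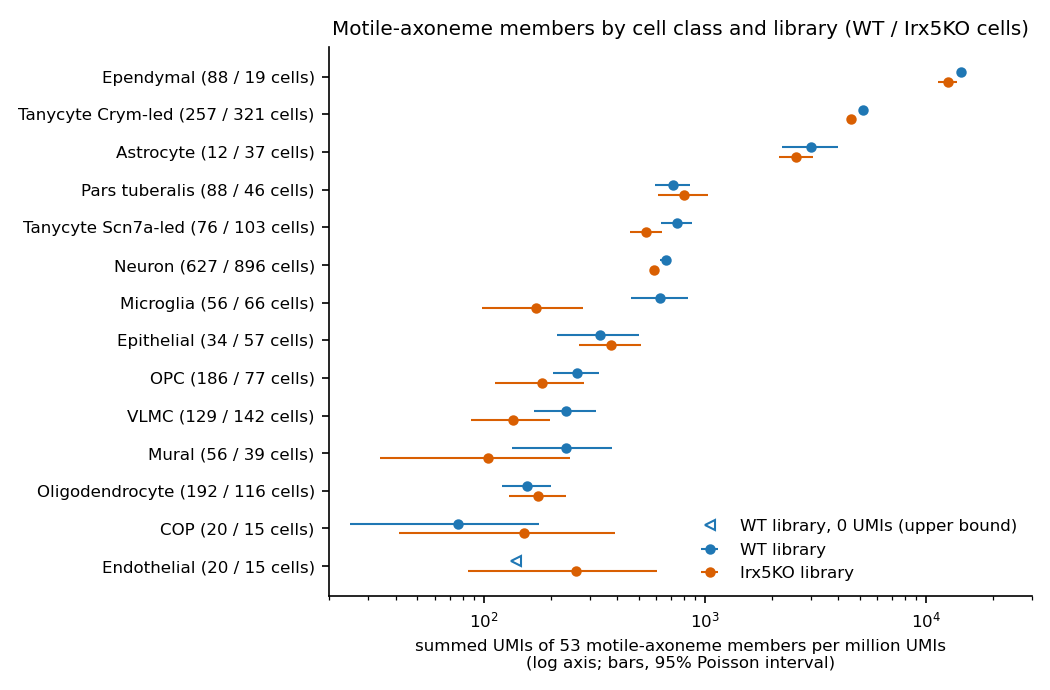
Summed CPM (log axis) of the 53 motile-axoneme members in each cell class, for the WT and the Irx5KO library, with exact Poisson 95% intervals; an open triangle marks an upper bound where no UMI was seen. Ependymal-like cells (14358 and 12451 CPM) and Crym-led tanycytes (5181 and 4561 CPM) stand above neurons (664 and 589 CPM) and oligodendrocytes (157 and 176 CPM).

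Against neurons, the 53 genes were 21.6-fold higher in ependymal-like cells of the WT library (20.1 to 23.2) and 21.2-fold higher in the Irx5KO library (18.9 to 23.7). With Cfap36 and Cfap20, which every large class held, the sums differed 12.8-fold (12.1 to 13.5) and 12.6-fold (11.3 to 14). The sum with both genes was the planned one, and leaving them out after their levels were seen raised the fold. The Irx5KO value rests on 19 cells: it was 7.17-fold when a finer clustering placed 99 cells in the class, and 7.56-fold when cells were classed by a marker score. Of the 88 members, 47 had at least 20 UMIs over both classes in each library, and 32 of these were at least 2-fold higher in ependymal-like cells in both, where 8.69% of the 10804 genes measured were. None was 2-fold lower, where 26.5% of genes were. The median log2 ratio of the 47 was 2.14 and 2.47, against -0.38 and 0.03 over all genes. A member that reached 20 UMIs only through its level in a single class had to differ. These counts, and the other counts between classes below, are therefore descriptive.

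Among the Cfap genes, Cfap45, a protein inside the doublet microtubule, had 1048 CPM in WT ependymal-like cells against 6.07 in neurons, a 173-fold difference (94.1 to 353), and 793 against 12.3 CPM in the Irx5KO library, or 64.4-fold (37.0 to 110). Cfap126 (flattop), which helps to position basal bodies, stood at 999 against 15.5 CPM and at 1090 against 24.0 CPM. Cfap44, a tether of the inner dynein arm, reached 496 against 19.9 CPM in WT and 892 against 13.3 CPM in Irx5KO. The groups lay apart by more than counting error for each of these in both libraries. Cfap36 and Cfap20 behaved otherwise. Cfap36 had 577 against 387 CPM in WT and 561 against 329 CPM in Irx5KO, only 1.49-fold and 1.71-fold apart, and Cfap20 was 2.68-fold and 2.12-fold higher.

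Dynein chains were rare outside the ventricular lining. Dnah5, a heavy chain of the outer arm whose loss causes primary ciliary dyskinesia, had 59 UMIs in WT ependymal-like cells (366 CPM, 279 to 472) and 12 in Irx5KO (396 CPM, 205 to 692), against 7.17 and 3.56 CPM in neurons. Dnah9, another outer-arm chain, had 143 against 1.10 CPM and 264 against 3.89 CPM. The 17 dynein genes together were 25-fold (20.5 to 30.7) and 30.1-fold (22.7 to 39.7) higher in ependymal-like cells than in neurons. Dnah14 departed from this pattern, with 28 and 17 UMIs in oligodendrocytes (68.8 and 63.7 CPM) and 1 and 0 in neurons. Its exons overlap Lbr on the opposite strand, and no source used here says whether the authors' counting used strand.

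The radial spoke head genes were split. Rsph4a, a spoke-head protein of motile cilia, had 856 against 19.3 CPM in WT and 1156 against 28.8 CPM in Irx5KO, 44.3-fold and 40.1-fold higher in ependymal-like cells than in neurons. Rsph1 had 3740 against 164 CPM (22.7-fold) and 1552 against 69.3 CPM (22.4-fold). Rsph9 differed less, at 279 against 69.0 CPM (4.05-fold) and 330 against 102 CPM (3.24-fold). Tekt1, a tektin of the doublet wall, stood at 366 against 41.4 CPM and 330 against 29.8 CPM, and the 5 tektins together were 7.64-fold (6.01 to 9.68) and 5.64-fold (2.87 to 10.1) higher. The Spag genes, named for sperm antigens, are not a single functional family. Spag17, a central-pair protein, had 304 CPM in WT ependymal-like cells and no UMI in neurons, at least 184-fold higher against the level of 3 UMIs, and 198 against 0.648 CPM in Irx5KO. Spag9, a scaffold for kinase and motor proteins, ran the other way, with ependymal-to-neuron ratios of 0.509 and 0.677.

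**Figure D2:**
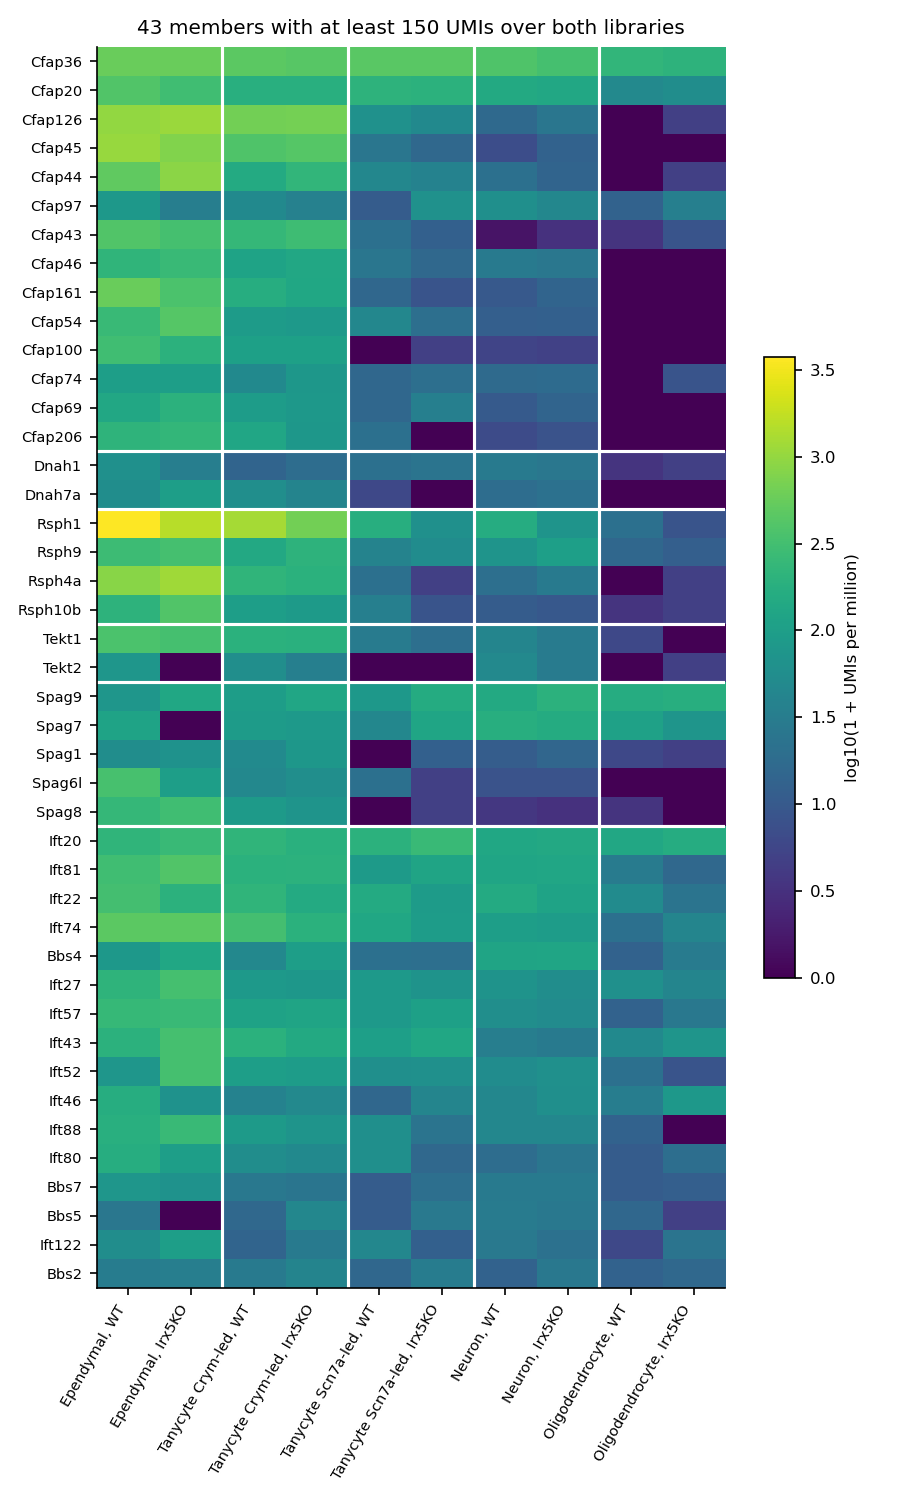
Levels of the 43 members with at least 150 UMIs over both libraries, as log10(1 + CPM), in 5 cell classes of each library, grouped by gene name. Cfap, Rsph and dynein genes fade from ependymal-like cells to oligodendrocytes, whereas Cfap36, Cfap20, Spag9 and Ift20 stay visible in every class shown.

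Transport genes differed far less. The 14 Ift genes summed to 2704 CPM in WT ependymal-like cells and 876 in neurons, a 3.09-fold difference (2.77 to 3.44), and to 3138 and 847 CPM in Irx5KO, or 3.70-fold (2.98 to 4.54). All 14 were measured, and 9 were 2-fold higher in both libraries, against 8.69% of all genes. Ift74, a core subunit of the anterograde IFT-B complex, had 465 against 101 CPM and 462 against 93.0 CPM, and Ift88, whose loss blocks cilium assembly, was 4.07-fold and 6.09-fold higher. Ift20, which also works at the Golgi, was 1.65-fold and 1.86-fold higher. The 8 Bbs genes, most of them subunits of the BBSome cargo coat, summed to 267 against 219 CPM (1.22-fold, 0.869 to 1.67) and 330 against 242 CPM (1.36-fold, 0.651 to 2.52), so no difference was detectable at this depth. Bbs7 alone passed the size rule among the 5 measured. Bbs4 had 80.6 against 120 CPM in WT and 132 against 124 CPM in Irx5KO.

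Tanycyte-like cells were not uniform. Summed over the 53 genes, the Crym-led cluster was 7.80-fold (7.27 to 8.37) and 7.75-fold (7.29 to 8.24) above neurons, while the Scn7a-led cluster was 1.12-fold (0.941 to 1.33) and 0.918-fold (0.769 to 1.09). The Crym-led cluster exceeded the Scn7a-led one 6.96-fold (5.90 to 8.25) and 8.44-fold (7.13 to 10.1). Of 58 members measured between Crym-led tanycytes and neurons, 33 were at least 2-fold higher in both libraries and none lower, where 11.2% of genes were higher and 17.1% lower. Between Scn7a-led tanycytes and neurons 39 were measured, with 4 higher (background 9.13%) and 4 lower (18.7%). The median log2 ratio was 1.67 and 2.26 for the Crym-led cluster, and 0.17 and -0.06 for the Scn7a-led one. Over all tanycyte-like cells 32 of 60 measured members were higher than in neurons and none lower (12.5% and 15.9% of genes), and 30 of 54 were higher and 1, Spag5, lower in ependymal-like than in tanycyte-like cells (6.86% and 11.6%). For the sum of all 55 genes the ratio to neurons was 3.72 (3.52 to 3.93) and 3.68 (3.5 to 3.86), and it was 2.47 in WT when cells were classed by a marker score.

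In the Crym-led cluster the Cfap genes led. Cfap43, a protein linking the inner dynein arm to the doublet, had 110 WT UMIs (242 CPM, 199 to 291) and 159 in Irx5KO (287 CPM, 244 to 336), against 1 UMI (0.552 CPM) and 7 UMIs (2.27 CPM) in neurons. Cfap52 had 74.7 CPM against none in WT neurons, at least 45.1-fold higher, and 94 against 0.324 CPM in Irx5KO. Cfap126 stood at 646 and 674 CPM. Both Crym-led values lay above every neuron interval for these genes. In Scn7a-led cells Cfap126 had 63.7 and 49.1 CPM, 4.12-fold and 2.05-fold above neurons. A pair of transport genes set the Scn7a-led cells apart from neurons in opposite directions in both libraries: Ift43, of the retrograde IFT-A complex, was 3.11-fold and 4.59-fold higher, and Bbs4 had 19.6 against 120 CPM and 18.9 against 124 CPM. Spag5, a mitotic spindle protein rather than a ciliary one, was the member highest relative to neurons there, at 78.4 against 3.86 CPM and 71.8 against 2.27 CPM. The cycling markers Mki67, Top2a, Cdk1 and Ccnb1 had no UMI in that cluster. The other cycling markers, Birc5 and Cenpf, are not given here, so whether those cells cycle was not tested.

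The axoneme was not lower by one common factor in Crym-led tanycytes than in ependymal-like cells. The 53-gene sum was 2.77-fold (2.62 to 2.94) and 2.73-fold (2.44 to 3.04) higher in ependymal-like cells, but the dyneins differed 4.02-fold (3.37 to 4.79) and 5.14-fold (3.86 to 6.75), and the Cfap genes without Cfap36 and Cfap20 differed 2.40-fold (2.20 to 2.61) and 2.30-fold (1.96 to 2.68). The intervals of dyneins and Cfap genes did not overlap in either library. Dnah5 had 366 against 22.0 CPM in WT, a 16.7-fold gap (8.45 to 36.5), and 396 against 32.5 CPM in Irx5KO, or 12.2-fold (5.35 to 26.7). Cfap126 differed 1.55-fold (1.27 to 1.88) and 1.62-fold (1.10 to 2.31). Dnah3, an inner-arm heavy chain, had 17 UMIs in 88 WT ependymal-like cells and none in 257 Crym-led cells (at least 16.0-fold). Spag17 was 9.88-fold and 18.3-fold higher, and Cfap157, a basal body protein, 14.1-fold and 14.6-fold. Ift genes differed 1.61-fold (1.43 to 1.82) and 2.26-fold (1.80 to 2.80). Of 48 members measured, 18 were at least 2-fold higher in ependymal-like cells in both libraries and none lower, against 6.42% and 9.2% of genes.

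**Figure D3:**
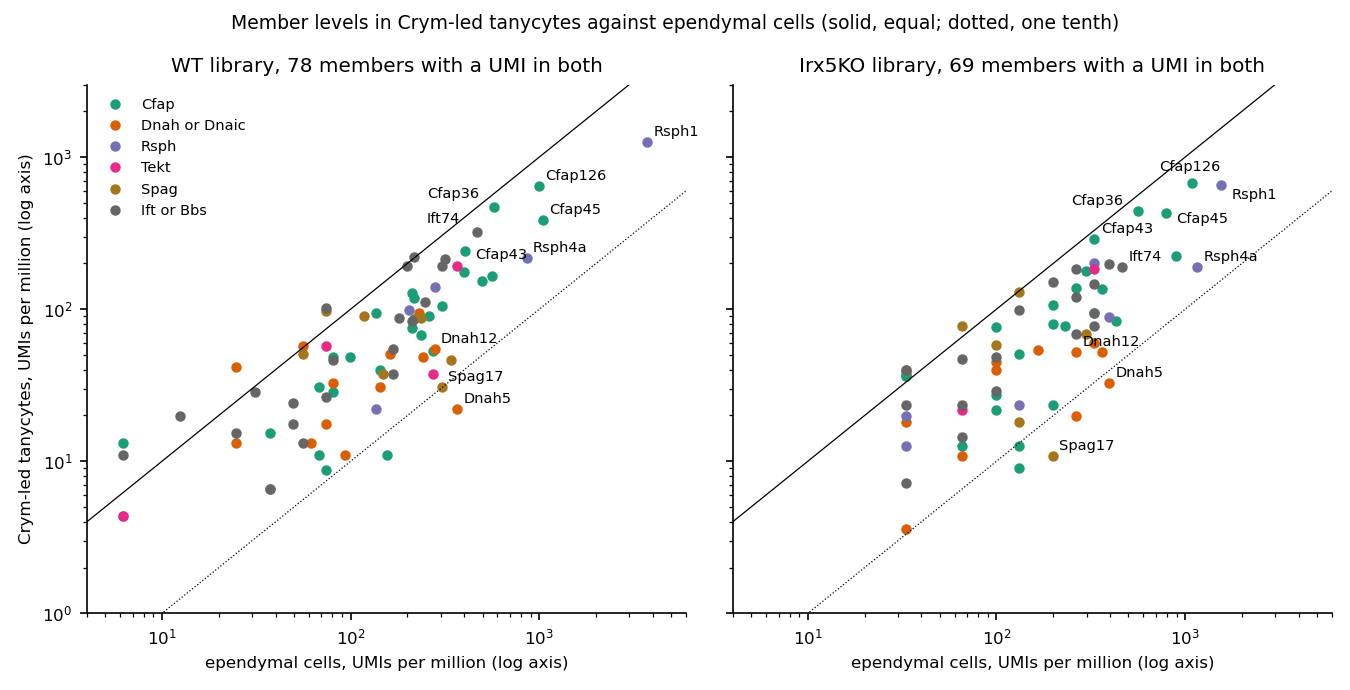
CPM of each member in Crym-led tanycytes (vertical, log axis) against ependymal-like cells (horizontal, log axis) for members with a UMI in both, 78 in WT and 69 in Irx5KO; the solid line marks equal levels and the dotted line a level 10 times lower. Cfap126 and Cfap36 lie near equality in both libraries, whereas Dnah5 and Spag17 lie near the dotted line.

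The 9 ependymal markers, which also named the classes, differed unequally between these 2 classes. Their ependymal-to-Crym-led ratio was lowest for Mia (1.74 and 1.56) and Fam183b (2.55 and 3.31), and highest for Ccdc153, with 2983 against 46.1 CPM in WT (64.7-fold) and 2543 against 30.7 CPM in Irx5KO (82.8-fold). Foxj1 differed 4.16-fold and 6.09-fold, with 242 and 146 CPM in Crym-led cells, and Tmem212 16.6-fold and 49.8-fold. The part of ependymal RNA or cells in the Crym-led levels was not tested. Sntn, at the tip of ependymal cilia, had 577 CPM in WT ependymal-like cells and none in Crym-led ones. Ependymal, tanycyte and astrocyte-like cells were also clustered again on their own. The 4 clusters that held most Crym-led cells had 3906 to 5604 CPM of the 53 genes in the 2 libraries, and the Scn7a-rich cluster 520 and 531 CPM. Both ends of that range came from a cluster led by Agt and Ntsr2, in which 76 of 119 cells were Crym-led. The new cluster led by Ccdc153 held 18 Crym-led cells among its 124 and had 13923 and 11272 CPM.

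Read per cell, the signal was general within the class. Each cell was thinned to 1000 UMIs and shallower cells were left out (15 WT and 5 Irx5KO ependymal-like cells, 113 and 130 neurons, 30 and 16 oligodendrocytes). Every one of the remaining 73 WT and 14 Irx5KO ependymal-like cells had a UMI of the 53 genes (exact intervals 95.1% to 100% and 76.8% to 100%), with a median of 13 and 12 UMIs. In Crym-led tanycytes 98.6% and 96.4% of cells had one, with medians of 5 and 4. Among neurons 44.4% and 43.3% did (68.3% and 69.6% before thinning, at median depths of 2129 and 2418.5 UMIs), and among oligodendrocytes 11.1% (6.72% to 17.0%) and 14% (7.87% to 22.4%; before thinning 23.4% and 25.9%, at 1850.5 and 1737.5 UMIs, or 14.6% and 17.2% without Dnah14). Neurons stood above oligodendrocytes in both libraries, with a median of 0 in both classes. WT microglia had 31.0% (15.3% to 50.8%), an interval that overlaps that of WT neurons (40.01% to 48.77%). WT oligodendrocyte precursors had 22.7% and vascular leptomeningeal cells 18.4%, both with intervals below that of neurons. In the Irx5KO library microglia had 11.6% (3.89% to 25.1%), precursors 14.04% and vascular leptomeningeal cells 12.8%. The part of free RNA in these shares was not tested.

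**Figure D4:**
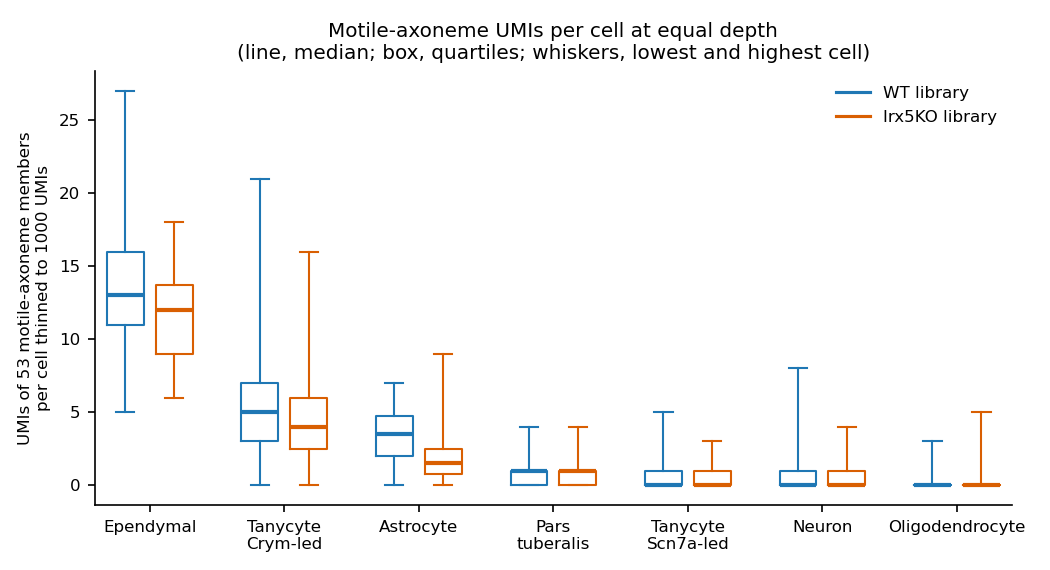
UMIs of the 53 motile-axoneme members per cell after thinning each cell to 1000 UMIs, in 7 classes of each library; lines are medians, boxes quartiles and whiskers the lowest and highest cell. Ependymal-like cells centre on 13 and 12 UMIs, Crym-led tanycytes on 5 and 4, and neurons and oligodendrocytes on 0.

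Members differed widely in how far neurons lay below ependymal-like cells. The ependymal-to-neuron ratio was, for example, 4.05 for Rsph9, 8.84 for Tekt1 and 173 for Cfap45 in WT, and 3.24, 11.1 and 64.4 in Irx5KO. Against oligodendrocytes, neurons held 4.23-fold (3.29 to 5.52) and 3.34-fold (2.50 to 4.56) more of the 53-gene sum. Without Dnah14 the ratio was 7.51 (5.39 to 10.8) and 5.23 (3.65 to 7.78). Rsph9 had 69.0 against 14.7 CPM in WT and 102 against 11.2 CPM in Irx5KO. Rsph1 had 164 against 19.6 CPM and 69.3 against 7.50 CPM. Tekt2, another tektin, had 84 and 93 UMIs in neurons (46.4 and 30.1 CPM) and 0 and 1 in oligodendrocytes. Cfap46, of the central pair, had 28.7 and 25.3 CPM in neurons and none in oligodendrocytes, at least 3.89-fold and 2.25-fold higher. Dyneins as a group did not differ detectably, at 78.4 against 88.4 CPM and 74.5 against 82.5 CPM, with Dnah14 holding most of the oligodendrocyte count. Of 38 members measured, 24 were at least 2-fold higher in neurons in both libraries and none lower, but neurons also had 31.0% of all genes higher and 9.28% lower. The median was 1.67 and 1.37 on the log2 scale, against 0.64 and 0.59 over all genes. The 6 neuron clusters held between 464 and 804 CPM of the 53 genes.

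Ciliary genes outside the name rule were taken from lists of known roles and set against the same 8.69% of all genes higher and 26.5% lower in ependymal-like cells than in neurons. Of 42 other axoneme and dynein-assembly genes, 22 were measured between ependymal-like cells and neurons, and all 22 were at least 2-fold higher in both libraries. A gene that reached the UMI minimum only through its ependymal level had to differ, so these counts are descriptive too. Mns1, a doublet lumen protein, had 1265 against 11.6 CPM and 1717 against 9.72 CPM, and Enkur 1197 against 25.4 CPM and 1486 against 17.2 CPM. Of 20 further transport genes and motors, 19 were measured, 7 were higher and 1 lower. Kifap3, an adaptor of the kinesin-II motor that also serves axons, had 211 against 412 CPM and 132 against 359 CPM. Of 19 transition-zone and primary-cilium genes, 18 were measured, with 9 higher and 2 lower. Those 2 were Tub and Ahi1, and Ahi1, the Joubert syndrome gene, had 360 against 3176 CPM and 330 against 2758 CPM. Genes of the neuronal primary cilium reached the UMI minimum only through neurons, so their direction was fixed by the minimum. Adcy3, the adenylyl cyclase that marks that cilium, had 39 and 79 UMIs in neurons (21.5 and 25.6 CPM) and 1 and 0 in ependymal-like cells, and the receptor Npy2r had 49 and 125 UMIs in neurons (27.0 and 40.5 CPM) and none in ependymal-like cells. In those cells 3 UMIs are 18.6 and 99.1 CPM, so no difference in the Irx5KO library was detectable at this depth. Rfx3, a regulator of ciliogenesis, had 68.2 CPM (11 UMIs) in WT ependymal-like cells, 52.7 and 57.8 CPM in Crym-led tanycytes, and 12.7 and 19.4 CPM in neurons.

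Between genotypes, the CPM sums of axoneme genes were lower in the Irx5KO library, and much of that gap lay in a single gene, Rsph1. Summed over the 55 genes, Irx5KO over WT was 0.868 in ependymal-like cells (0.779 to 0.965), 0.873 in tanycyte-like cells (0.830 to 0.918) and 0.882 in neurons (0.835 to 0.931). Without Rsph1 it was 1.01, 0.967 and 0.955. That gene was left out after its low Irx5KO levels were seen, so the ratios had to rise. Ift and Bbs genes together gave 1.17 (0.936 to 1.44), 0.911 (0.838 to 0.990) and 0.996 (0.942 to 1.05). With 1 library per genotype these ratios compare those libraries and not the conditions. In ependymal-like cells they depend on the scaling: trimmed-mean factors shifted every log2 ratio there by -0.46 and median-of-ratios factors by -0.41, and gave 0.633 and 0.652 for the 55 genes. The same shifts apply to the ratio of 1.01 without Rsph1, so its closeness to 1 holds for CPM only. Over the settings tried, which include leaving Rsph1 out, the ependymal-like ratio ranged from 0.632 to 1.01, lowest with the finer clustering. The tanycyte-like ratio was 1.09 when cells were classed by a marker score.

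Rsph1, which lies on chr17:31255019-31277383, minus strand, was that gene. It had 603 UMIs in WT ependymal-like cells (3740 CPM, 3447 to 4051) and 47 in Irx5KO (1552 CPM, 1141 to 2064), a ratio of 0.415 (0.302 to 0.559). In Crym-led tanycytes it had 1248 and 658 CPM, in Scn7a-led ones 172 and 60.4 CPM, and in neurons 164 and 69.3 CPM (ratio 0.422, 0.352 to 0.504). Pars tuberalis cells had 258 and 105 CPM, and oligodendrocytes 8 and 2 UMIs. The Irx5KO value was the lower one in ependymal-like cells, in both tanycyte clusters and in all 6 neuron clusters, while astrocyte-like cells had 308 CPM (5 UMIs) and 482 CPM (24 UMIs). Over the processing settings tried, the ratio stayed between 0.303 and 0.449 in ependymal-like cells, between 0.352 and 0.615 in tanycyte-like cells and between 0.406 and 0.426 in neurons. The rest of the family did not share it. Without Rsph1, the Rsph sum gave 1.37 (1.02 to 1.81), 1.05 and 1.46 (1.24 to 1.72) in ependymal-like cells, tanycyte-like cells and neurons. The trimmed-mean and median-of-ratios factors in ependymal-like cells, 1.37 and 1.33, are about as large as the ratio there, so no rise can be read from it. Rsph9 in neurons went from 69.0 to 102 CPM (1.48, 1.2 to 1.83).

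**Figure D5:**
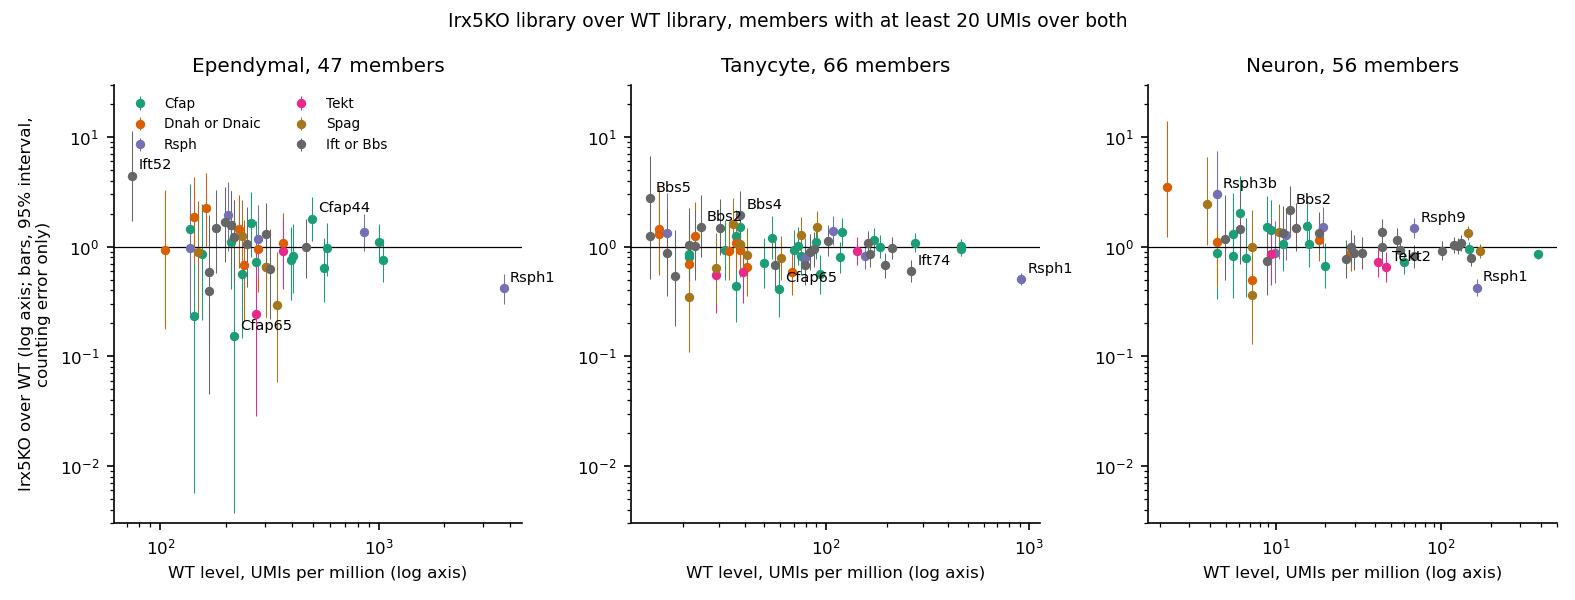
Irx5KO over WT ratio of CPM (log axis) with 95% counting intervals against the WT level (log axis), for members with at least 20 UMIs over both libraries: 47 in ependymal-like cells, 66 in tanycyte-like cells and 56 in neurons. Rsph1 lies below 1 in each panel, with ratios of 0.415, 0.508 and 0.422.

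A size rule of 1.5-fold was met by 9 of 47 members upwards and by 12 downwards in Irx5KO ependymal-like cells, and by 19.6% and 30.2% of the genes measured there. In tanycyte-like cells 6 of 66 were higher and 12 lower (background 16.0% and 11.5%), and in neurons 7 of 56 were higher and 4 lower (15.8% and 9.14%). Over all kept cells 30 of 82 were lower and 3 higher (12.1% and 14.6%), alongside a fall in ependymal-like cells from 4.78% to 0.975% of the library in the main clustering. The finer clustering placed 162 WT and 99 Irx5KO cells in that class, so the size of the fall is not settled. Fewer ependymal-like cells and less RNA per cell cannot be told apart in values pooled over all kept cells.

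For several single genes the counting interval of the ratio left out 1. In tanycyte-like cells Ift74 went from 264 to 158 CPM (0.598, 0.472 to 0.755) and Cfap65, an axonemal protein needed in sperm, from 59.1 to 24.4 CPM (0.413, 0.228 to 0.726). Ependymal-like Cfap65 had 35 UMIs in WT and 1 in Irx5KO. BBSome genes Bbs2, Bbs4 and Bbs5 were higher by the size rule in Irx5KO tanycyte-like cells, where 16.0% of all genes measured were. Bbs4 went from 37.9 to 73.3 CPM (1.93, 1.19 to 3.22), Bbs5 from 13.6 to 37.9 CPM (2.78, 1.29 to 6.63) and Bbs2 from 24.3 to 36.7 CPM (1.51, 0.798 to 2.97). The interval of the last includes no difference. In Scn7a-led cells alone Bbs4 had 4 and 5 UMIs (0.964, 0.207 to 4.86), Bbs5 2 and 7, and Bbs2 3 and 8. The 8 Bbs genes together gave 1.57 (1.2 to 2.05) in all tanycyte-like cells, 1.11 (0.980 to 1.26) in neurons, and 1.24 (0.555 to 2.50) in ependymal-like cells. In neurons Bbs4 and Bbs5 gave 1.03 and 0.880, whereas Bbs2 went from 12.1 to 25.9 CPM (22 and 80 UMIs, 2.13, 1.32 to 3.59).

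Bbs2 (chr8:94067954-94098928, minus strand) lies on the same chromosome as Irx5 (chr8:92357625-92376286, plus strand) (mm10). Whether that bears on the Bbs2 level was not tested. Tekt2 in neurons went from 46.4 to 30.1 CPM (0.650, 0.479 to 0.884). Rsph3b went from 4.41 to 13.3 CPM in neurons, but 67.4% of the sequence words at its 3' end also occur in other genes, chiefly its copy Rsph3a, so its reads may be split between them. In ependymal-like cells Ift52 went from 12 WT UMIs (74.4 CPM) to 10 Irx5KO UMIs (330 CPM), a ratio of 4.44 (1.72 to 11.2), and Spag6l, a central-pair protein, from 55 to 3 UMIs (341 to 99.1 CPM).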

How the data were processed

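Single-cell 3' mRNA counts were measured by Drop-seq in 1 WT and 1 Irx5KO library. Per the submitters' processing notes, bcl2fastq, Picard, STAR 2.6.0b and Seurat 3 were used with mm10. The WT table holds raw UMI counts per gene and barcode as deposited by the authors (2800 barcodes). The Irx5KO table (2350 barcodes) and the merged table were deposited by the authors as the natural log of 1 plus counts scaled to 10000 per barcode, where counts had been assumed for both libraries when the analysis was planned. Whole UMIs were recovered from the natural log values before any sum was made.

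Barcodes needed 500 detected genes or more and a mitochondrial share of 20% or less, and were dropped where Scrublet called doublets (10 WT and 23 Irx5KO). Clustering used 2000 variable genes, without the members and companion cilium genes, 30 components, 15 neighbours and resolution 1 (scanpy 1.11.5, igraph 0.11.9, scikit-learn 1.9.0, numpy 2.4.6, scipy 1.17.1, matplotlib 3.10.9, anndata 0.12.19, Python 3.11.15). Classes were named from markers by a rule set after the clusters were seen, so cell numbers depend on rebuilt names. UMIs were summed per class and library and given as CPM with exact Poisson intervals, ratios with conditional binomial intervals and shares with Clopper-Pearson intervals, all at 95%. A fold against 0 UMIs uses 3 UMIs per library and class. The ratio script was tested on simulated data.

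The members, the companion lists and the tests were chosen with earlier results of these data known. Named genes were the 6 members with most UMIs per name group, up to 8 per direction in the ependymal, tanycyte and neuron contrasts and up to 6 per direction between genotypes, ordered by whichever interval end lay closest to a ratio of 1, with Bbs2 and 4 genes per companion list. Apart from class and cycling markers, Cfap157, Dnah3, Dnah14, Ift88, Spag17 and Tub were named after their values were seen. Alternatives were other gene minimums, a 10% mitochondrial limit, doublets kept, the barcodes of the merged table only, the cell with most member UMIs left out, a second clustering of ependymal and tanycyte-like cells, resolutions 0.5 and 2, clustering with the members, a marker score per cell, a mean over cells, other scalings, other UMI minimums, and subsets of genes or clusters.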

Additional observations from a re-analysis of the deposited data

Results flagged for a closer look

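Cfap161, an axonemal protein of motile cilia, had ratios between genotypes on opposite sides of 1 in 2 classes. In ependymal-like cells 91 WT UMIs (564 CPM) and 11 Irx5KO UMIs (363 CPM) gave 0.644 (0.310 to 1.21). In neurons 16 and 41 UMIs (8.83 and 13.3 CPM) gave 1.5 (0.826 to 2.87). Both counting intervals include 1, and with 1 library per genotype the difference between the classes was not tested.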

How the results depend on the processing

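No paired analysis was possible because each genotype is 1 library, and for the same reason no replicate could be left out. Of the ratios recomputed, 223 stayed within their main interval, 83 moved beyond it and 2 turned direction. A turn was counted only where the main interval left out 1. The Irx5KO over WT ratio of Ift and Bbs genes in ependymal-like cells, whose main interval includes 1, ranged from 0.782 to 1.19. Counts of single members are not among these ratios and were judged by a factor of 1.5. The cause of the shifts was not tested. The Irx5KO ependymal-like class has 19 cells. Values below are sums of the 55 Cfap, Dnah, Dnaic, Tekt and Rsph genes unless Ift or Bbs is named, and pairs are WT then Irx5KO.

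With cells of at least 200 genes, ependymal over neuron was 11.6 and 10.2, tanycyte over neuron 3.27 in WT, ependymal over tanycyte 2.9 and Ift ependymal over neuron 2.61 in Irx5KO; Irx5KO over WT was 0.769 (Ift and Bbs 0.864) in ependymal-like and 0.937 in tanycyte-like cells. With at least 800 genes, ependymal over tanycyte was 3.7 in WT and tanycyte over neuron 3.46 and 3.46. With a 10% mitochondrial limit, ependymal over neuron was 11.7 and 9.83, tanycyte over neuron 3.39 in WT, ependymal over tanycyte 2.77 and Ift 2.7 in Irx5KO; Irx5KO over WT was 0.742 (Ift and Bbs 0.888) and 0.924. At resolution 2, ependymal over neuron was 10.004 and 7.17, tanycyte over neuron 2.86 and 3.12, ependymal over tanycyte 2.3 in Irx5KO, Ift ependymal over neuron 2.68 and 2.1, and Ift tanycyte over neuron 1.56 in WT; Irx5KO over WT was 0.632 (Ift and Bbs 0.782) and 0.963.

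With the members used for clustering, ependymal over neuron was 11.2 and 10.1, tanycyte over neuron 3.13 and 3.46, ependymal over tanycyte 2.91 and Ift 2.59 in Irx5KO; Irx5KO over WT was 0.891 for Ift and Bbs in ependymal-like and 0.974 in tanycyte-like cells. With a marker score, ependymal over neuron was 9.99 and 7.56, ependymal over tanycyte 4.05 and 2.48, tanycyte over neuron 2.47 and 3.05, Ift ependymal over neuron 2.63 and 2.24, and Ift tanycyte over neuron 1.47 in WT. Irx5KO over WT was then 0.67 (Ift and Bbs 0.841) in ependymal-like cells and turned to 1.09 (Ift and Bbs 0.99) in tanycyte-like cells. As a mean over cells, ependymal over tanycyte was 3.13 in WT and tanycyte over neuron 3.98 and 4.05. Trimmed-mean scaling gave Irx5KO over WT of 0.633 (Ift and Bbs 0.851) and median-of-ratios scaling 0.652 (0.877) in ependymal-like cells.

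The following were chosen after seeing the data. Without Cfap36 and Cfap20, ependymal over neuron was 21.6 and 21.2, ependymal over tanycyte 3.77 and 3.82, and tanycyte over neuron 5.73 and 5.54. Without Rsph1, ependymal over neuron was 11.2 in WT, tanycyte over neuron 3.42 and 3.47, and Irx5KO over WT turned to 1.01 in ependymal-like cells and was 0.967 in tanycyte-like cells and 0.955 in neurons. With Crym-led cells alone, ependymal over tanycyte was 2.63 and 2.57, tanycyte over neuron 4.86 and 4.9, Ift 1.91 and 1.64, and Bbs 1.01 in Irx5KO. With Scn7a-led cells alone these were 10.9 and 11.2, 1.17 and 1.13, 1.24 and 1.21, and 0.381 and 0.514.

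Shares of all genes follow each count in parentheses. At a minimum of 50 UMIs, 19 of 31 members were higher in ependymal-like cells than in neurons (6.74%), 17 of 29 higher (6.86%) and 0 lower than in tanycyte-like cells, and 16 of 39 higher in tanycyte-like cells than in neurons (10.4%). Between genotypes 2 of 21 were higher and 6 lower in ependymal-like cells (13.8% and 22.0%), 5 of 44 lower in tanycyte-like cells (8.05%), and 3 of 39 higher and 2 lower in neurons (12.4% and 6.47%). At a minimum of 10, 14 of 66 were higher and 19 lower in ependymal-like cells (23.5% and 36.4%) and 7 of 63 lower in neurons (11.5%). Leaving Dnah14 out of the neuron and oligodendrocyte sums was also chosen after seeing the data.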
